A study of Mus musculus with 2 samples.

Results

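Adrb1, Adra1a, Adra1b, Chrm2, Grk5, Pde3a, Pde4b and Pde4d carry the adrenergic and muscarinic signal and its cyclic nucleotide arm in the heart. These 8 genes were taken by symbol out of 55357 genes listed in the count matrices, and each symbol matched 1 row. Their UMIs (unique molecular identifiers, each marking 1 captured RNA molecule) were read by cell type in 2 libraries of dissociated whole heart from C57BL/6 mice. Mice of the TAC group were males in which the aortic arch was tied over a 27G needle at 8 weeks of age, and their hearts were taken after 6 weeks of pressure overload. Mice of the Sham group went through the same operation with no constriction, although the series' own design text speaks of uninjured mice, and their label gives neither sex nor age, while the paper speaks of male mice throughout. Cells of 3 to 5 hearts were pooled into each library, so there was 1 library per group, no measure of the spread between mice and no test of a difference between the groups. All intervals below are 95% intervals and cover counting error only. The cell shares of a library cannot be tied to single hearts.

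Noradrenaline, adrenaline and the synthetic agonist isoproterenol act on the heart through adrenergic receptors. The β1 receptor couples to the stimulatory G protein, adenylyl cyclase then makes cyclic AMP, and protein kinase A raises the rate and force of the beat. The α1 receptors couple to Gq and phospholipase C, while the M2 muscarinic receptor answers vagal acetylcholine through inhibitory G proteins. Receptor kinases such as GRK5 phosphorylate active receptors, and phosphodiesterases break down cyclic AMP and cyclic GMP. The study worked mainly with isoproterenol infusion and macrophages, so the question put to these libraries was which cells held RNA for the receptors and for the enzymes after them.

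The Sham library held 9935 barcodes and 28146691 UMIs, with a median of 1964 UMIs a barcode, and the TAC library 9932 barcodes and 29108986 UMIs, with a median of 2143. Of these, 9475 and 9452 were kept after removal of predicted doublets. Both libraries shared 32 barcode sequences, of which 27 were kept in each. Clusters were named from marker genes, and none of the 8 genes or of the other pathway genes took part in the clustering. Sham and TAC held 2511 and 2396 cardiomyocytes, 2291 and 2127 fibroblasts, 1903 and 2253 endothelial cells, 1412 and 1347 macrophages, 1066 and 1043 pericytes, and 85 and 110 lymphatic endothelial cells. Smooth muscle cells numbered 50 and 43, so that TAC fell under the minimum of 50 cells, and their values were looked at after the others.

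The labels were first set against genes known to answer pressure load. In cardiomyocytes the level (UMIs of a gene per 1000000 UMIs of the cell type) of Nppb, the B-type natriuretic peptide, was 38.1 in Sham and 29.4 in TAC, and that of Acta1, the skeletal actin of the fetal heart programme, was 33.7 and 11.97. Nppa was at 15.6 and 11.7, and Ankrd1 at 333 and 335. Atp2a2, the calcium pump of the sarcoplasmic reticulum that is known to fall under load, was at 2206 and 2764, a ratio of 1.25 (1.23 to 1.27). Myh7, the slow myosin heavy chain, was at 609 in Sham and 827 in TAC, a ratio of 1.36 (1.32 to 1.40). Nppb, Acta1, Nppa and Atp2a2 thus went opposite to the direction known under load, Ankrd1 hardly differed, and only Myh7 went with it. Whether the group labels are right was not tested. Every direction given below is one between the library labelled TAC and the library labelled Sham. The load genes were chosen after their values were seen. Malat1, a nuclear RNA, took 13.1% of cardiomyocyte UMIs in Sham and 16.3% in TAC. Mitochondrial RNA took 0.260% and 0.145% of them, and RNA of ribosomal protein genes 0.185% and 0.186%. Whether the barcodes held whole cells or mostly nuclear RNA was not tested. Leaving out Malat1 and mitochondrial RNA is given below where it matters.

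All 8 genes are protein coding. In the GENCODE M21 annotation of GRCm38, matched by gene identifier, Adrb1 (chr19:56722199-56733113, plus strand, ENSMUSG00000035283) spans 10.9 kb, and Grk5 lies on the same chromosome (chr19:60889749-61095968, plus strand). Adra1a lies at chr14:66635251-66771168 (plus strand), Adra1b at chr11:43774606-43901210 (minus strand) and Chrm2 at chr6:36388084-36528414 (plus strand). Pde3a lies at chr6:141249269-141507448, Pde4b at chr4:102087543-102607259 and Pde4d at chr13:108449948-109953461, all on the plus strand, and Pde4d is the longest with 1504 kb. No other annotated gene overlapped Adrb1, Adra1a, Adra1b or Pde4b. Whether reads from introns were counted is not given in the sources used here, so levels are compared below between cell types and libraries and not between genes.

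**Figure D1:**
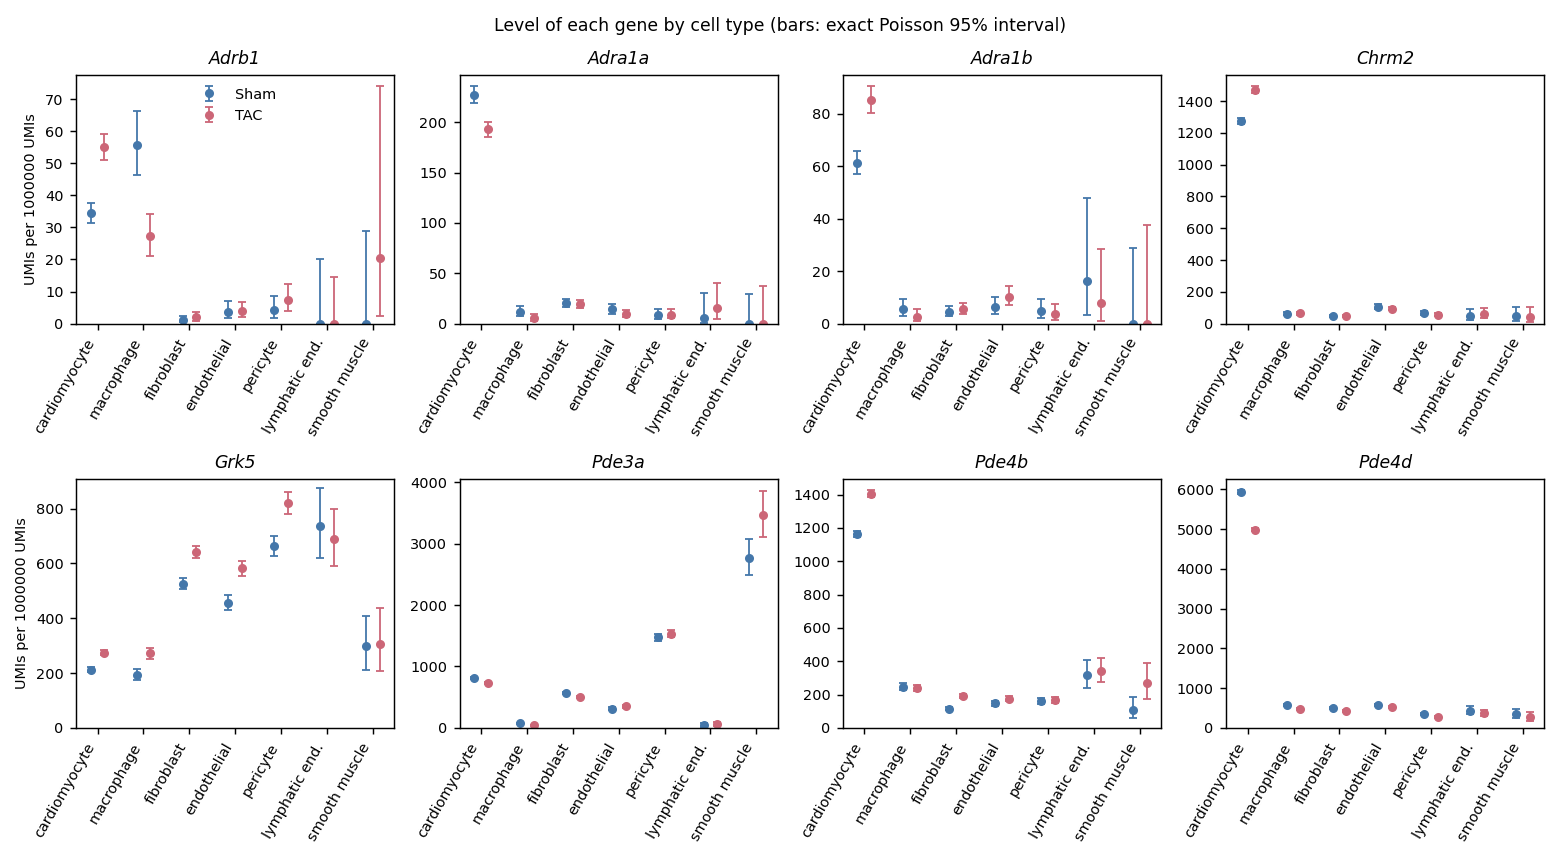
Level of each of the 8 genes (UMIs per 1000000 UMIs of the cell type, linear axes from 0, 1 panel a gene) in 7 cell types, with Sham in blue, TAC in red and exact Poisson 95% intervals as bars. Adra1a, Adra1b, Chrm2, Pde4b and Pde4d stood highest in cardiomyocytes, Adrb1 was highest in cardiomyocytes and macrophages, Grk5 was lowest in those types, and Pde3a stood at 1472 in Sham pericytes and at 2773 in the 50 Sham smooth muscle cells.

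Adrb1, the β1 receptor and the main cardiac target of isoproterenol, was read in cardiomyocytes and in macrophages. In cardiomyocytes its level was 34.4 (31.4 to 37.7, 464 UMIs) in Sham and 55.1 (51.2 to 59.3, 723 UMIs) in TAC. In macrophages it was 55.7 (46.3 to 66.4, 123 UMIs) in Sham and 27.2 (21.2 to 34.3, 71 UMIs) in TAC. Sham macrophages therefore stood above Sham cardiomyocytes, by 1.62-fold (1.32 to 1.98), while in TAC cardiomyocytes stood above macrophages by 2.03-fold (1.59 to 2.63). The TAC over Sham ratio was 1.60 (1.42 to 1.80) in cardiomyocytes and 0.488 (0.359 to 0.659) in macrophages, so the cell types went opposite ways with intervals that did not overlap. The other types held few molecules of it. Fibroblasts had 6 UMIs in Sham and 10 in TAC, endothelial cells 9 and 13, and pericytes 8 and 14. Lymphatic endothelial cells had 0 in either library, which allows a level of up to 16.4 in Sham and 11.7 in TAC.

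RNA set free from broken cardiomyocytes can be captured with any cell, so each level was set beside those of Myh6, Ttn, Tnnt2, Actc1, Actn2, Ryr2, Myl2 and Pln, which only cardiomyocytes should express. In Sham macrophages these 8 reference genes stood at a median of 6.27% of their cardiomyocyte level and in TAC macrophages at 4.14%. Adrb1 stood at 162% (134.5% to 193%) and 49.3% (38.5% to 62.2%). The 111 Sham macrophages with an Adrb1 UMI held the reference genes at 6.51% of the cardiomyocyte level, and the 1301 without one at 6.24%. In TAC the values were 3.60% for 63 macrophages with an Adrb1 UMI and 4.18% for 1284 without. Adrb1 also did not stand apart between macrophages with an MHC class II or Ccr2 UMI (53.8, 37.3 to 75.2, in Sham) and those without (56.4, 45.3 to 69.5).

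Per cell, Adrb1 was sparse in both types. After each cell was thinned to 1000 UMIs, 3.23% of 2477 Sham cardiomyocytes (exact binomial interval 2.57% to 4.004%) and 5.34% of 1011 Sham macrophages (4.04% to 6.91%) had an Adrb1 UMI, with 34 and 401 shallower cells left out. In TAC the shares were 5.79% of 2385 cardiomyocytes and 2.31% of 1125 macrophages, with 11 and 222 left out. Fibroblasts, which served as the type that should lack it, had 0.192% in Sham and 0.246% in TAC. Before thinning the Sham shares were 15.1% in cardiomyocytes, 7.86% in macrophages and 0.262% in fibroblasts, at median depths of 4510, 1314.5 and 2156 UMIs. The thinned shares kept the order of the levels in each library.

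Adra1a, the α1A receptor, was a cardiomyocyte gene with a small part of its UMIs in fibroblasts. Its level in cardiomyocytes was 228 (219.5 to 236) in Sham and 193 (186 to 201) in TAC, a ratio of 0.849 (0.805 to 0.895), and 94.1% of its Sham UMIs lay in cardiomyocytes, which held 52.0% of all UMIs of that library. Leaving out Malat1 and mitochondrial RNA gave 0.879. In fibroblasts it stood at 20.0 and 19.5, or 8.81% and 10.1% of the cardiomyocyte level, above the reference medians of 4.54% and 3.39% but not above the reference gene carried over most. The fibroblast molecules were not spread evenly. The Sham cluster led by Lvrn, Acss3 and Col6a6 held 39.4 (31.5 to 48.8), against 7.32 in the other fibroblast clusters together, a ratio of 5.39 (3.39 to 8.87). In TAC the cluster led by Svep1, Col6a6 and Aldh1a1 held 29.8 against 4.69 in the rest, a ratio of 6.35 (3.30 to 13.7). In those clusters Adra1a stood at 17.3% and 15.4% of its cardiomyocyte level and the most carried-over reference gene at 13.1% and 14.7%. The TAC share lay close to that gene and rested on no more than the 101 Adra1a UMIs of all TAC fibroblasts. The part of captured cardiomyocyte RNA in these cluster levels was not tested.

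Adra1b, the α1B receptor, stood at 61.4 (57.3 to 65.7) in Sham cardiomyocytes and 85.4 (80.5 to 90.5) in TAC cardiomyocytes. TAC was higher and the intervals did not overlap, with a ratio of 1.39 (1.27 to 1.52). Cardiomyocytes held 92.6% of its Sham UMIs, and no other large type held more than 33 UMIs of it in a library. In endothelial cells, with 15 and 33 UMIs, the ratio of 1.65 had an interval that included 1 (0.870 to 3.26). Between the α1 receptors, Adra1a was thus lower and Adra1b higher in TAC cardiomyocytes.

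Chrm2, the M2 receptor, was read almost wholly in cardiomyocytes. Its level there was 1273 in Sham (17165 UMIs) and 1473 in TAC (19315 UMIs), a ratio of 1.16 (1.13 to 1.18), or 1.20 without Malat1 and mitochondrial RNA. Elsewhere it stood near the reference genes. In 0 of 8 pairs of cell type (macrophage, fibroblast, endothelial cell, pericyte) and library did the interval of its share of the cardiomyocyte level lie wholly above the reference median. That share was 3.73% in Sham fibroblasts and 8.34% in Sham endothelial cells, beside 4.54% and 8.31%. After thinning, 62.7% of Sham cardiomyocytes and 4.37% of Sham fibroblasts had a Chrm2 UMI. The endothelial cluster led by Tmem108 and Nrg1 was higher than the other endothelial clusters, at 212 against 89.7 in Sham (2.37-fold, 1.77 to 3.14) and 142 against 80.7 in TAC (1.76-fold, 1.36 to 2.26). There Chrm2 reached 16.7% and 9.64% of the cardiomyocyte level, still under the most carried-over reference gene at 28.2% and 15.8%. 9330158H04Rik, annotated antisense to Chrm2, stood at 23.95 and 53.5 in cardiomyocytes, and whether counting kept the strands apart is not given in the sources used here.

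Chrm3, the M3 receptor that couples to Gq, lay outside cardiomyocytes. Its level was 330 in Sham and 467 in TAC endothelial cells, 656 and 724 in lymphatic endothelial cells, and 101 and 161 in fibroblasts, where the ratio was 1.60 (1.44 to 1.79). Among endothelial clusters, Chrm3 was a leading gene only of the cluster led by Tmem108 and Nrg1, in both libraries. That cluster held 189 of 1903 endothelial cells in Sham and 297 of 2253 in TAC, and its part in the endothelial levels was not tested. Cardiomyocytes held 11 and 27 UMIs of Chrm3. Chrm2 and Chrm3 were thus highest in different cell types, as the map of the receptor and phosphodiesterase families also shows.

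**Figure D2:**
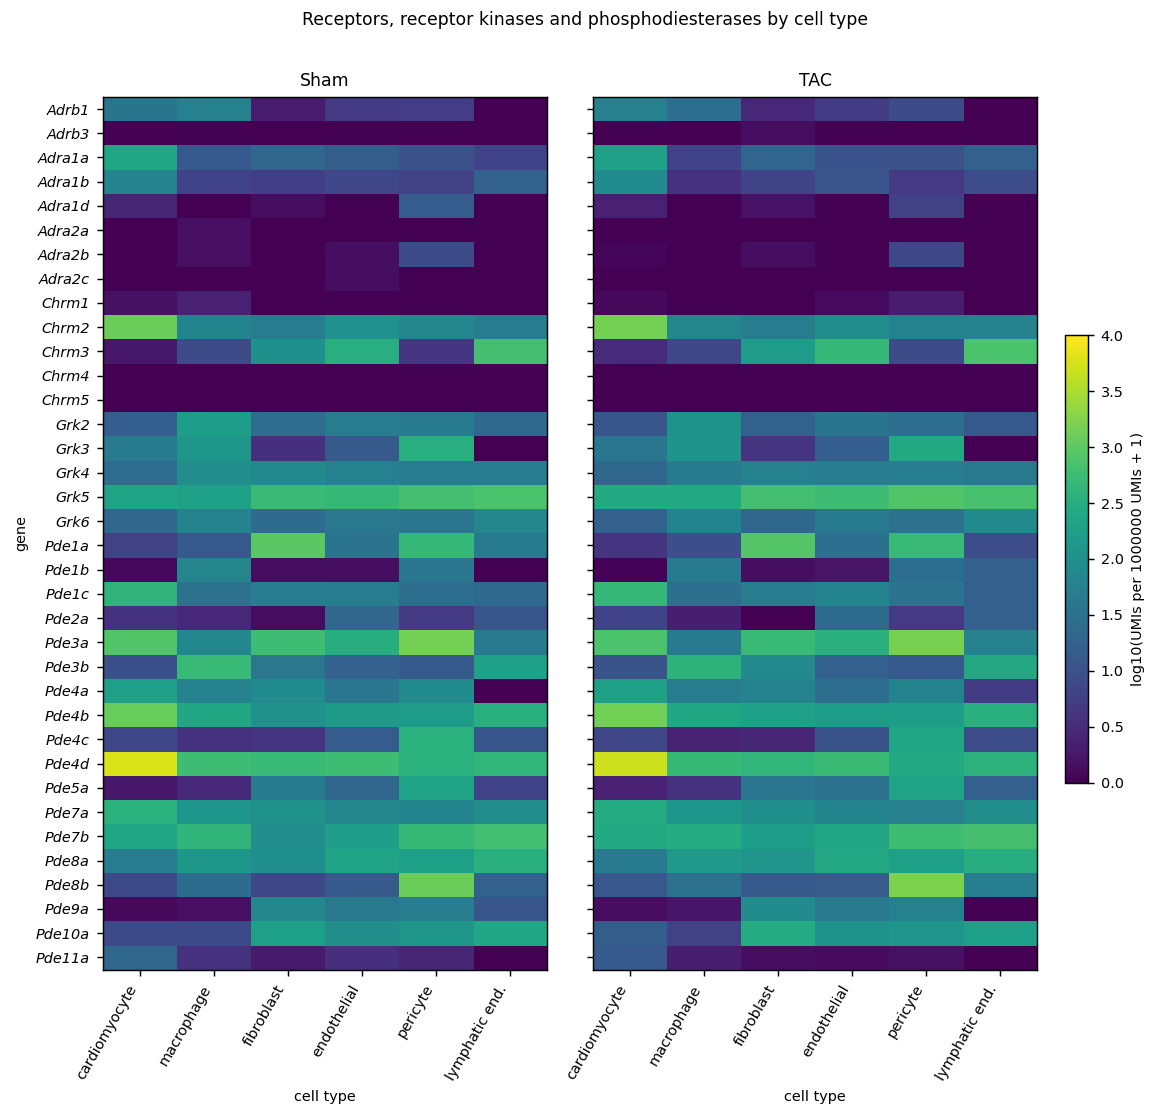
Levels of adrenergic and muscarinic receptors, receptor kinases and cyclic nucleotide phosphodiesterases on the lists (rows) in 6 cell types (columns), Sham on the left and TAC on the right, as log10(UMIs per 1000000 UMIs + 1) from dark (0) to yellow (4). Chrm2 is bright in cardiomyocytes and Chrm3 in endothelial and lymphatic endothelial cells, and Pde4d is brightest in cardiomyocytes among the cell types. Levels are not scaled by gene length, so colours compare along a row.

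Grk5, a kinase that phosphorylates activated receptors, was higher in stromal and vascular cells than in cardiomyocytes. Its Sham level was 213 (205 to 221) in cardiomyocytes and 194 (176 to 213) in macrophages, against 526 in fibroblasts, 456 in endothelial cells, 664 in pericytes and 738 in lymphatic endothelial cells. The levels of cardiomyocytes and macrophages did not differ beyond counting error (1.10-fold, 0.991 to 1.22), and neither did those of lymphatic endothelial cells and pericytes in Sham (1.11-fold, 0.925 to 1.33), whereas in TAC pericytes stood higher (1.19-fold, 1.02 to 1.40). In all 8 such pairs it lay above every reference gene, at 91.2% of the cardiomyocyte level in Sham macrophages and up to 312% in Sham pericytes.

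In TAC Grk5 was higher in each of the 5 large types taken as a whole. The levels were 275 in cardiomyocytes, 272 in macrophages, 642 in fibroblasts, 582 in endothelial cells and 820 in pericytes. The ratios were 1.29 (1.23 to 1.36), 1.40 (1.24 to 1.58), 1.22 (1.16 to 1.28), 1.27 (1.18 to 1.37) and 1.24 (1.15 to 1.33) in that order, and the median ratio over all genes tested was 1.024, 1.003, 1.017, 1.027 and 0.997. In lymphatic endothelial cells the ratio of 0.933 had an interval that included 1 (0.741 to 1.18). Among fibroblasts, the clusters led by Adgrd1 and Gfpt2, which also carry Pi16, were highest, at 691 in Sham (1.42-fold over the other fibroblasts, 1.30 to 1.55) and 889 in TAC (1.89-fold, 1.77 to 2.03). The other fibroblasts stood at 486 in Sham and 470 in TAC. The high cluster held 348 of 2291 fibroblasts in Sham and 780 of 2127 in TAC. Each library was clustered by itself, so the high cluster and the other fibroblasts need not be the same cells in both. Vcan was a leading gene of the Sham cluster led by Col8a1 and Nox4, but of the high cluster in TAC. The part of cluster size in the fibroblast ratio was not tested. Zfp950, annotated antisense to a part of Grk5, stood at 140 and 153 in cardiomyocytes and at 256 and 341 in pericytes.

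Pde3a, the phosphodiesterase that cyclic GMP inhibits and the target of milrinone, led in mural cells. Its level was 1472 in Sham and 1537 in TAC pericytes, and 2773 (2491 to 3078) and 3474 (3114 to 3864) in smooth muscle cells. Cardiomyocytes followed with 810 and 730, a ratio of 0.901 (0.877 to 0.926), which leaving out Malat1 and mitochondrial RNA moved to 0.934. Fibroblasts stood at 567 and 503 (0.887, 0.841 to 0.935). Macrophages held 72.0 and 44.4, a ratio of 0.617 (0.482 to 0.789), at 8.89% and 6.09% of the cardiomyocyte level, while the reference genes there also stood lower in TAC, at the medians of 6.27% and 4.14% given above. With no doublets removed the ratio was 0.738 and no longer past 1.5-fold. The part of captured cardiomyocyte RNA in that ratio was not tested.

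Endothelial cells as a whole held Pde3a at 311 in Sham and 349 in TAC, and most of it lay in 1 cluster. The cluster led by Tmem108 and Nrg1, with 189 Sham and 297 TAC cells, held 539 of 753 endothelial Pde3a UMIs in Sham and 918 of 1129 in TAC. Its level was 1659 (1522 to 1805) and 1401 (1312 to 1495). The other endothelial cells stood at 102 and 81.8, so the cluster was 16.3-fold (13.9 to 19.1) and 17.1-fold (14.7 to 20.0) higher. That cluster also carried Npr3, a natriuretic peptide receptor, among its leading genes. The TAC over Sham ratio over all endothelial cells was 1.12 (1.02 to 1.23), although the level was lower in TAC both in this cluster and among the other endothelial cells. The cluster made up 189 of 1903 endothelial cells in Sham and 297 of 2253 in TAC.

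**Figure D3:**
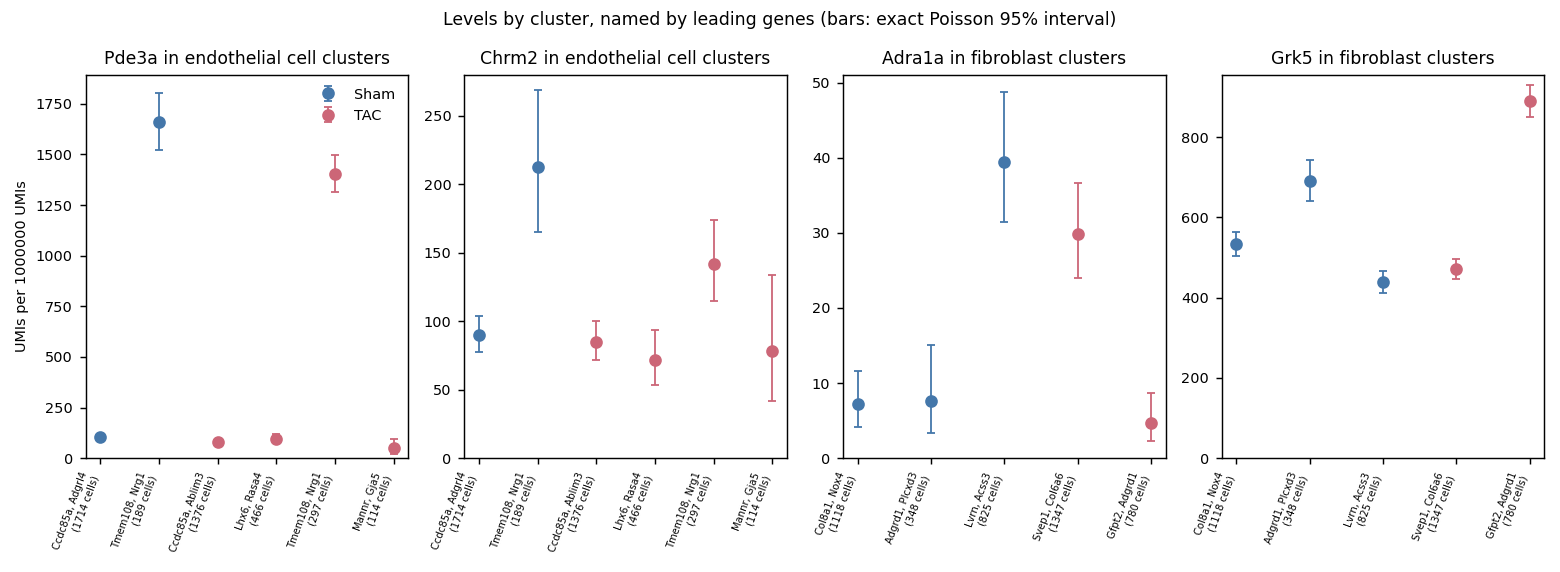
Levels (UMIs per 1000000 UMIs, linear axes from 0) of Pde3a and Chrm2 in endothelial clusters and of Adra1a and Grk5 in fibroblast clusters, each cluster named by 2 leading genes with its number of cells, Sham in blue, TAC in red, bars exact Poisson 95% intervals. In both libraries the cluster led by Tmem108 and Nrg1 holds Pde3a at 1401 or more beside 102 or less in every other endothelial cluster.

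Pde4b and Pde4d, which break down cyclic AMP alone, both led in cardiomyocytes and went opposite ways there. Pde4b stood at 1163 in Sham and 1406 in TAC cardiomyocytes, a ratio of 1.21 (1.18 to 1.24). Pde4d, which is tied to the ryanodine receptor and to β receptor signalling, stood at 5931 and 4980, a ratio of 0.840 (0.831 to 0.848), or 0.870 without Malat1 and mitochondrial RNA. Pde4d was lower in TAC in each of the 5 large types, with ratios of 0.828 in macrophages, 0.853 in fibroblasts, 0.913 in endothelial cells and 0.763 in pericytes, all with intervals below 1. Outside cardiomyocytes it stood at 5.41% to 10.6% of the cardiomyocyte level, with its interval above the reference median in 7 of 8 pairs and above the most carried-over reference gene in 0. The pair not above the median was Sham pericytes, at 5.96% beside 6.3%. Reference medians were also lower in TAC, at 6.27% and 4.14% in macrophages and 4.54% and 3.39% in fibroblasts. They were 8.31% and 6.56% in endothelial cells and 6.3% and 4.8% in pericytes. The part of captured cardiomyocyte RNA in the Pde4d ratios outside cardiomyocytes was not tested. Rps3a3, which overlaps Pde4d in the annotation, stood at 30.1 and 17.1 in cardiomyocytes.

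Among the 5 large types Pde4b differed most in fibroblasts. Its level there was 113 (104 to 122, 615 UMIs) in Sham and 191 (179 to 203, 991 UMIs) in TAC, and TAC was 1.69-fold higher (1.53 to 1.87). As a share of the cardiomyocyte level it went from 9.73% to 13.6% in fibroblasts, while the reference median went from 4.54% to 3.39%. The most carried-over reference gene, Actc1, stood at 15.3% and 14.6%, above Pde4b in both libraries, and the part of captured cardiomyocyte RNA in the fibroblast ratio was not tested. Macrophages (246 and 237), pericytes (159 and 165) and lymphatic endothelial cells (317 and 340) had ratios whose intervals included 1, and in endothelial cells the levels of 148 and 174 gave 1.18 (1.03 to 1.35).

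**Figure D4:**
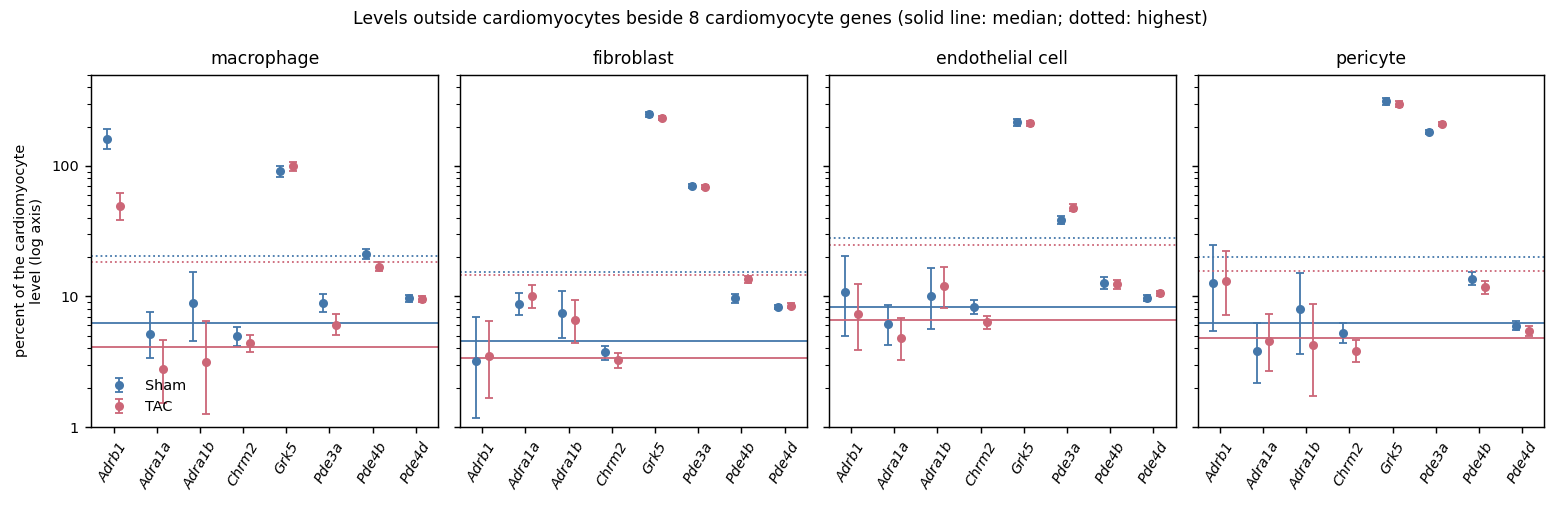
Level of each of the 8 genes as a percent of its cardiomyocyte level (log axis) in macrophages, fibroblasts, endothelial cells and pericytes, Sham in blue and TAC in red, bars exact Poisson 95% intervals of the numerator. Solid lines mark the median and dotted lines the highest of 8 cardiomyocyte reference genes in that type and library. Grk5 lies above the dotted lines in every panel and Adrb1 in macrophages, whereas the intervals of Chrm2 reach the solid lines or lie under them.

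The counts of members were read against all genes. A gene with at least 40 UMIs over both libraries in a cell type was counted as past the fold where TAC and Sham differed by 1.5-fold or more. In cardiomyocytes 1 of the 8 genes, Adrb1, was past the fold and higher in TAC, while 13.8% of 13952 genes tested were, and 0 were lower, while 7.00% of all were. In macrophages 3 of 7 tested were lower (Adrb1, Adra1a and Pde3a), beside 9.23% of 10194 genes, and 0 were higher, beside 10.0%. Adra1a rested there on 26 and 14 UMIs and stood under the reference medians. In fibroblasts 1 of 7 was higher (Pde4b), beside 11.5% of 13011, and 0 were lower, beside 4.78%. In endothelial cells 1 of 7 was higher (Adra1b, beside 9.84% of 10783) and 1 lower (Adra1a, beside 6.25%), both with intervals that included 1. In pericytes 0 of 5 passed in either direction, beside 8.22% and 7.22% of 9158. In cardiomyocytes, fibroblasts and endothelial cells the member count was thus near the background. In macrophages the count of lower members was above it, but of those genes only Adrb1 stood above the most carried-over reference gene. Pde3a there was no longer past 1.5-fold with no doublets removed (0.738).

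**Figure D5:**
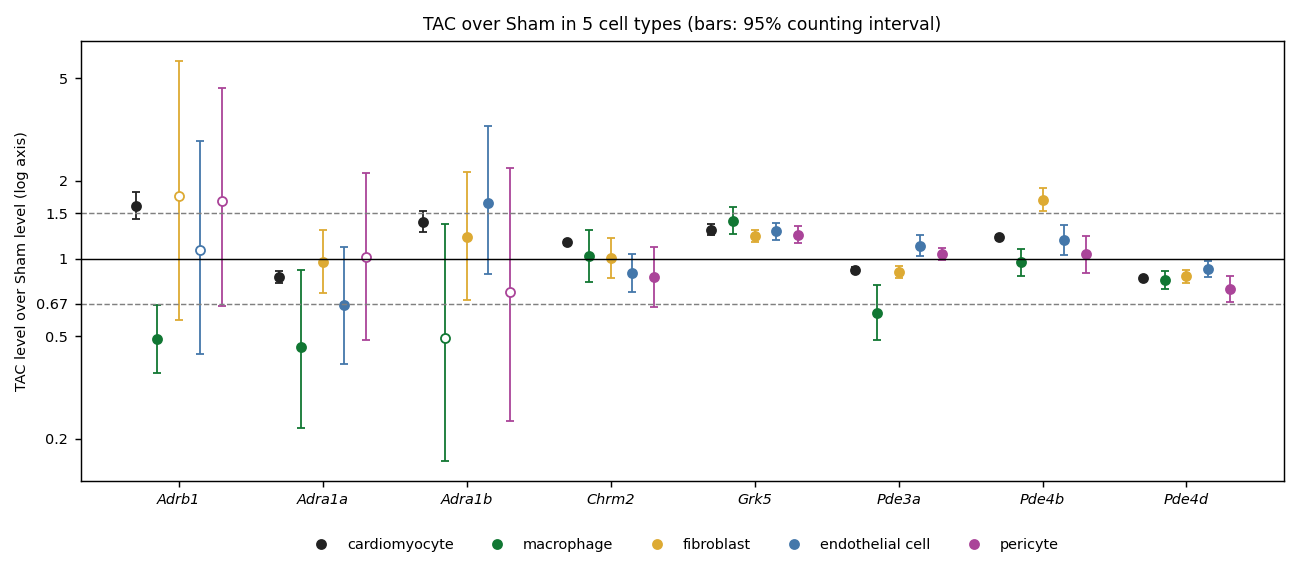
TAC level over Sham level (log axis) of the 8 genes in 5 cell types, bars 95% counting intervals, open circles under 40 UMIs over both libraries, dashed lines at 1.5-fold in either direction. Grk5 lies above 1 and Pde4d below 1 in all 5 types, and Adrb1 lies on opposite sides of 1 in cardiomyocytes (1.60) and macrophages (0.488).

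Cardiomyocytes with a UMI of Nppa or Nppb were set beside those without, since these peptides mark stressed cells. They made up 387 of 2511 Sham cells (15.4%) and 192 of 2396 TAC cells (8.01%), while 1.57% of Sham and 1.41% of TAC fibroblasts also had such a UMI. In TAC the positive cells held Adra1a at 104 (86.9 to 123) against 203 (195 to 211), Pde4d at 3855 against 5105, and Pde3a at 584 (543 to 627) against 746 (730 to 762). They held Grk5 at 369 (337 to 404) against 264 (255 to 274) and Pde4b at 1700 against 1373. Adrb1 (54.8 and 55.2) and Chrm2 (1437 and 1477) did not differ beyond counting error. In Sham the same split gave Adra1a at 213 (195 to 232) and 231 (222 to 240), with overlapping intervals, and Grk5 at 225 and 210. Pde4d stood at 6085 and 5898, so that it was lower in positive cells in TAC and higher in Sham. Pde4b (1344 and 1123) and Pde3a (744 and 824) went the same way in Sham as in TAC, with intervals that did not overlap. Positive cells were deeper, with medians of 5278 and 6076 UMIs against 4398 and 4848.5, and the part of depth in the split was not tested.

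Another 95 genes of the pathway, on 12 lists by role, were read in the same way. In cardiomyocytes 68 of them were tested, of which 11 were past the fold and higher in TAC and 6 lower, beside the 13.8% and 7.00% of all genes given above, with a median ratio of 1.06 beside 1.024 over all genes. In macrophages 3 were higher and 5 lower of 50 (10.0% and 9.23% of all genes), and in fibroblasts 7 and 2 of 63 (11.5% and 4.78%). In endothelial cells 2 and 2 of 60 were past the fold (9.84% and 6.25%), and in pericytes 2 and 4 of 61 (8.22% and 7.22%). These counts were near the background or under it.

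Among the proteins next to the receptors, Rgs6, which speeds the shut-off of inhibitory G proteins, stood at 239 in Sham and 450 in TAC cardiomyocytes (1.88-fold, 1.80 to 1.97). Rgs2, which acts on Gq, went from 16.9 to 30.04 (1.78-fold, 1.51 to 2.10). Gnao1, an inhibitory G protein subunit, went from 49.8 to 32.9 (0.660, 0.584 to 0.747) and Gna11, of the Gq family, from 12.8 to 7.85 (0.616, 0.478 to 0.791). Gnas, the stimulatory subunit, stood at 120 and 124. Of the other receptor kinases, Grk2 was past the fold and lower in TAC in macrophages (175 and 109), fibroblasts (25.9 and 16.2) and pericytes (45.7 and 27.1), the direction opposite to that of Grk5, and Grk4 was lower in macrophages (94.2 and 42.1).

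Of the adenylyl cyclases, which make cyclic AMP, Adcy6 had the highest cardiomyocyte level, and it went from 440 to 286 (0.650, 0.623 to 0.677), or 0.673 without Malat1 and mitochondrial RNA. Adcy6 was also past the fold and lower in macrophages (38.0 and 16.5) and endothelial cells (96.2 and 51.0). As a percent of the cardiomyocyte level, all of these lay under the most carried-over reference gene. That gene stood at 20.6% and 18.4% in macrophages and at 27.9% and 24.8% in endothelial cells. The part of captured cardiomyocyte or pericyte RNA in the Adcy6 ratios was not tested. Adcy5, the other main form of the heart, stood at 82.2 and 64.7 in cardiomyocytes. Both genes stood higher in pericytes, Adcy6 at 612 and 446 and Adcy5 at 150 and 118. In cardiomyocytes Adcy8 went from 8.305 to 17.4 (2.09-fold, 1.66 to 2.65).

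Of the other phosphodiesterases, Pde1c had the highest cardiomyocyte level (403 and 463), followed by Pde7a (356 and 289). In fibroblasts 4 of 11 tested were past the fold, all higher in TAC, as was Pde4b, beside 11.5% of all fibroblast genes. Pde3b went from 37.7 to 76.5 (2.03-fold, 1.71 to 2.42), Pde7b from 95.1 to 174 (1.83-fold), Pde10a from 185 to 289 (1.56-fold) and Pde8b from 6.25 to 12.3. Pde8b rested there on 34 and 64 UMIs and stood at 1280 and 1598 in pericytes. The part of captured pericyte RNA in its fibroblast values was not tested. The list's median ratio in fibroblasts was 1.18 over 11 genes tested, beside 1.017 over all genes. In pericytes Pde4c was lower in TAC, at 353 and 229 (0.648, 0.573 to 0.733).

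Among the targets of cyclic nucleotides, Prkg1, the cyclic GMP kinase, had the highest cardiomyocyte level (1162 and 1214), although it stood at 7571 and 8258 in pericytes. Prkaca, a catalytic subunit of protein kinase A, went from 34.4 to 52.1 (1.52-fold, 1.35 to 1.71). Akap6, an anchor of protein kinase A, stood at 977 and 1073. Of the catecholamine and acetylcholine handling genes, 4 were tested in cardiomyocytes and 0 were past the fold.

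The genes whose levels over 23 clusters of both libraries were most like those of each member were found by Pearson correlation of log2(level + 1), as a description, since clusters share libraries and depth. Chrm2 was most like Fhl2 (r = 0.977), Hs3st5 and Tnnc1, and Pde4d most like Hs3st5 (0.975), Esrrg and Fhl2. Adra1a was most like Asb15 (0.945), Adra1b like Mfsd4b1 (0.935) and Pde4b like Ppip5k2 (0.944). Adrb1 reached no more than 0.892 (Fbxo44), and Grk5 was most like Ryk (0.918). For Pde3a the first was Gm28523 (0.969), followed by Gm43958 and Gm10400, and all of them overlap Pde3a in the annotation, so shared reads cannot be told apart from a shared pattern.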

How the data were processed

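The deposited files hold raw UMI counts per gene and barcode, which the authors made with Cell Ranger (7.1.0 per the labels' processing notes) and deposited without normalization. The genome build and the counting of introns and strands are not given in the sources used here, and the paper and the labels differ on the version of the 3-prime kit and of Cell Ranger. Barcodes with at least 200 detected genes were kept, and doublets predicted by Scrublet were removed (459 in Sham, 479 in TAC). Each library was clustered by itself in scanpy 1.11.5 (2000 variable genes, 30 principal components, 15 neighbours, Leiden resolution 1), without the 8 genes, the other pathway genes and mitochondrial genes. A cluster was named where at least 3 markers of a type were detected in 10% of the cluster and lay above the other clusters by 1 or more on the log2 scale. Ties were broken by the markers among the 10 leading genes, a rule set after a first clustering was seen, and 1 cycling Sham cluster of 47 cells stayed unnamed.

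Levels are counts per 1000000 UMIs of a type with exact Poisson 95% intervals, ratios have exact conditional intervals, and a library at 0 was set to 3 counts for the 1.5-fold call over genes with at least 40 UMIs. The call was tried on simulated cardiomyocyte counts with counting error only, where 100% of 189 genes changed 4-fold were recovered. Of 13748 unchanged genes, 2.44% passed the fold. Such counts hold no spread between mice, and changes near 1.5-fold were not simulated, so they do not show how the call does there. Of the gene identifiers, 52081 of 55357 (94.1%) matched GENCODE M21. Alternatives covered filters, doublets, clustering and the denominator. All 8 genes were to be named in types with at least 50 cells in both libraries, and other pathway genes by their cardiomyocyte level or by a ratio past 1.5-fold whose interval left out 1. Members and lists were chosen with earlier results of these data known. Neither a protein sequence nor a promoter is printed, since no measurement here bears on one. Some genes of the pathway lists are not reported here.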

Additional observations from a re-analysis of the deposited data

Results flagged for a closer look

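Adrb1 differed between cell types, with TAC over Sham ratios of 1.60 in cardiomyocytes and 0.488 in macrophages, whose intervals lay on opposite sides of 1. Pde3a had ratios of 0.901 in cardiomyocytes, 0.617 in macrophages and 0.887 in fibroblasts, and 1.12 in endothelial cells, where the change in the size of the cluster led by Tmem108 and Nrg1 (189 and 297 cells) went with it. With 1 library per group these differences between cell types were not tested beyond counting error.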

How the results depend on the processing

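Under 10 alternatives of filtering, doublets, clustering and denominator, all 120 ratios recomputed stayed within the counting interval of the value reported, and 79 of 80 levels did. The ratio of Adrb1 ran from 1.58 to 1.64 in cardiomyocytes and, in alternatives added after the data were seen, from 0.480 to 0.545 in macrophages, that of Sham macrophages to Sham cardiomyocytes from 1.49 to 1.67, that of Pde4b in fibroblasts from 1.61 to 1.70 and that of Pde3a in macrophages from 0.603 to 0.738, the last with doublets kept, where it was no longer past 1.5-fold. With no doublets removed the Sham pericyte level of Pde3a was 1414. The percent of Sham UMIs in cardiomyocytes moved at resolution 2, at a minimum of 500 genes, at a mitochondrial maximum of 10% and where doublets were kept. Unnamed Sham cells then numbered 370, 176, 164 and 167, beside 47 as reported, and the cause was not tested. In that order of settings it was 67.0%, 69.7%, 70.3% and 69.6% for Adrb1, 82.3%, 88.0%, 88.0% and 86.5% for Adra1a, 81.7%, 88.1%, 87.5% and 84.8% for Adra1b, 83.3%, 88.7%, 89.0% and 88.8% for Chrm2, 28.9%, 30.8%, 30.9% and 30.4% for Grk5, 52.9%, 56.4%, 56.4% and 55.7% for Pde3a, 77.6%, 82.8%, 83.2% and 81.8% for Pde4b, and 80.8%, 86.0%, 86.1% and 85.9% for Pde4d. Genes past 1.5-fold in cardiomyocytes numbered 2903, falling to 1046 at a fold of 2 and to 1806 with at least 100 UMIs, since fewer genes can pass. Of 64 pairs of gene, type and library outside cardiomyocytes, 39 had intervals above the median of the free RNA reference and 16 above its highest gene. The share of Sham cardiomyocytes with an Adrb1 UMI was 2.07% at 500 UMIs, 6.71% at 2000 and 15.1% without thinning, and of Sham macrophages 2.90%, 8.12% and 7.86%, so the order of the types turned without thinning. No paired analysis was possible because there was 1 library per group. Depth limits the receptors outside cardiomyocytes, where a type often held under 40 UMIs.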
